A study of Saccharomyces cerevisiae with 16 samples.

Results

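The autophagy genes of budding yeast were followed through the first minutes after glucose-limited cells met a pulse of glucose. They were taken as all genes whose single annotated symbol on the array is ATG followed by a number. This rule found 39 probe sets for 36 genes, out of 5656 genes measured, and 1 probe set was kept per gene, the brightest on average. RefSeq lists 37 genes with an ATG name. Another 2 autophagy genes, ATG6 and ATG24, are carried on the array as VPS30 and SNX4 and are described with the related genes.

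Autophagy encloses cytoplasm, organelles or selected proteins in a double membrane and delivers them to the vacuole, the digestive compartment of yeast, for breakdown and reuse. The Atg1 kinase complex starts it, a lipid kinase complex and vesicles carrying Atg9 build the membrane, the ubiquitin-like proteins Atg8 and Atg12 are conjugated on it, and receptors choose the cargo. In yeast the pathway is induced by starvation, and the nutrient-activated kinases TORC1 and protein kinase A hold it down when food is ample. A related constitutive route, the Cvt pathway, uses many of the same proteins to carry hydrolases to the vacuole in growing cells.

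Transcripts were measured on 16 Affymetrix arrays in the haploid laboratory strain CEN.PK 113-7D, grown with air and limiting glucose in a chemostat at pH 5 and 30 degrees C, with 0.05 of the volume replaced per hour. The groups, all of this strain with no altered gene named in the labels, were 3 arrays of the unperturbed steady state, then 2 arrays at 30 s, 2 arrays at 60 s, 3 arrays at 120 s, 1 array at 210 s, 3 arrays at 300 s and 2 arrays at 330 s after glucose was raised to about 1 g per litre (5.56 mM). The labels state that each time except 210 s drew on at least 2 separate cultures. With RNA from whole cultures, fewer cells with a transcript and less of it per cell cannot be told apart, and every signal is relative to the mean of its array, so that a change in total RNA is not seen. The mean signal as deposited, trimmed at both ends, ran from 82.8 to 325.9 between arrays, so all arrays were brought to a common trimmed mean of 150 with a floor of 12 that stands for the dimmest usable signal. The MATa markers read 2330 to 5132 (MFA1), 1019 to 2956 (MFA2), 143 to 253 (STE2), 75.2 to 136 (STE6) and 183 to 438 (BAR1). The MATalpha markers read 12 to 14.5 (MF(ALPHA)2), 28.6 to 56.9 (STE3), 79.2 to 152 (SAG1) and 184 to 372 (MF(ALPHA)1). The ranges of both lists overlapped, and the mating type was not tested.

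Of the 36 genes, 34 were above the floor on at least 2 arrays and entered the test. ATG16, whose protein joins the Atg12-Atg5 conjugate, and ATG29, a scaffold subunit of the Atg1 complex, were at the floor on all 16 arrays and are described no further. ATG4, the protease that processes Atg8, was above it on only 3 arrays. None of the 20 genes reported below as lower was at the floor on any steady-state array. Signals are not compared between genes, because a probe set's brightness depends on its probes. The median gap of the 34 genes between replicate arrays ran from 0.161 to 0.341 on the log2 scale.

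Up to 120 s no autophagy gene was called higher or lower. None passed the test at 30 s, 60 s or 120 s against steady state (limma, Benjamini-Hochberg adjusted p under 0.05), where 0%, 0% and 0.0739% of all 5410 genes tested passed. Unadjusted p under 0.05 was met by 2, 2 and 3 of the 34 genes at those times, beside 336, 343 and 586 of all 5410. Their median log2 difference from steady state was -0.08 at 30 s, -0.03 at 60 s and -0.09 at 120 s, beside -0.05, -0.05 and -0.07 for all genes tested. The largest early values were those of ATG15, which encodes the vacuolar lipase that opens autophagic bodies, and ATG21, which encodes a phosphoinositide-binding protein of the Cvt pathway. ATG15 gave a log2 difference of 0.84 at 60 s (limma adjusted p 0.76) and ATG21 gave -0.99 (limma adjusted p 0.76), and neither passed.

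At 300 s, 12 of the 34 genes had fallen against steady state and none had risen, where 30.5% of all genes tested passed, 18.3% lower and 12.1% higher. The 12 were ATG1, ATG2, ATG3, ATG7, ATG13, ATG14, ATG21, ATG23, ATG34, ATG39, ATG42 and ATG45, or 35.3% of those tested. Log2 differences were negative for 32 of the 34 genes, beside 3328 of all 5410. The median of the 34 was -0.46, beside -0.12 for all genes. In 12 genes all 300 s arrays lay below all steady-state arrays, which held for 23.6% of all genes, and in none did they all lie above, which held for 14.1%.

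At 330 s, 18 of the 34 had fallen and none had risen, or 52.9%, where 37.6% of all genes passed, 24.3% lower and 13.3% higher. The median log2 difference was -0.67, beside -0.19 for all genes. Arrays did not overlap in 25 genes, all lower at 330 s, where 36.1% of all genes were lower and 19% higher without overlap. The 10 genes that passed at both times were ATG1, ATG2, ATG3, ATG7, ATG13, ATG14, ATG34, ATG39, ATG42 and ATG45. Another 8 passed at 330 s alone (ATG11, ATG15, ATG17, ATG32, ATG33, ATG36, ATG38 and ATG40) and 2 at 300 s alone (ATG21 and ATG23). The contrasts at 300 s and 330 s share the same 3 steady-state arrays.

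The median of the 34 genes on each array, as log2 difference from the steady-state mean, was 0.09, -0.02 and -0.10 on the steady-state arrays and -0.12, -0.02 and -0.16 at 120 s. It was -0.26, -0.42 and -0.46 at 300 s and -0.62 and -0.74 at 330 s. All 5 late arrays thus lay below all 11 earlier ones, with the single 210 s array at -0.10. For all genes tested the same median was -0.08, -0.13 and -0.15 at 300 s and -0.18 on both 330 s arrays.

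**Figure D1:**
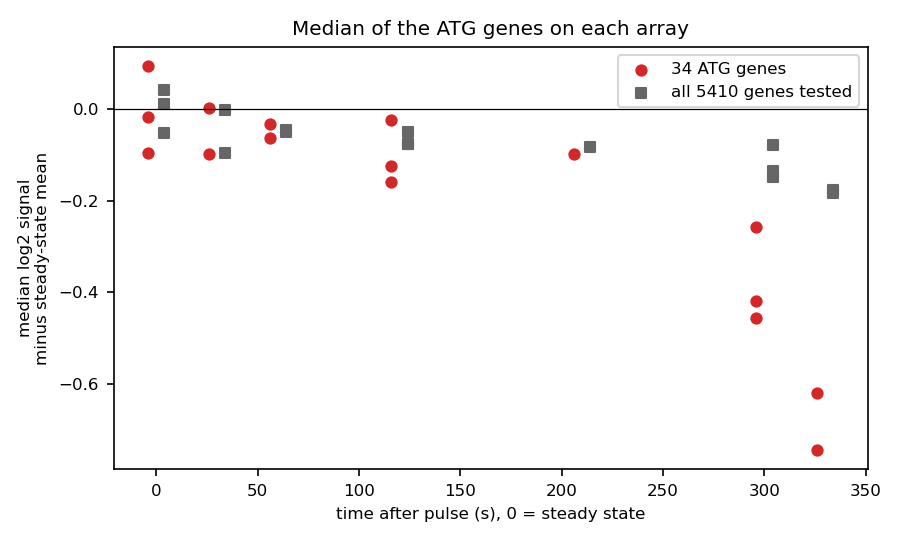
Median log2 signal minus the steady-state mean on each array (vertical axis) against time after the pulse in seconds, with steady state at 0, for the 34 autophagy genes (red circles) and all 5410 genes tested (grey squares). Points are moved a little sideways to keep them apart. The red circles lie between -0.26 and -0.46 at 300 s and at -0.62 and -0.74 at 330 s, below the grey squares of the same arrays.

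The 330 s arrays differed from most others in more than time. Both were processed on a day of their own, per the arrays' experiment files, so the 330 s time point and that day cannot be told apart. The ratio of 3' to 5' signal of ACT1, a measure of how complete the labelled RNA was, was 4.52 and 4.07 at 330 s and 3.39 on steady-state replicate 1, against 2.10 to 2.95 on the other 13 arrays. For SPT15 it was 5.86 and 3.88 at 330 s against 2.68 to 3.99 on the other 14 arrays, and for SRB4 8.2 and 4.89 at 330 s against 2.84 to 11.6. The part of RNA quality in the 330 s results was not tested. Steady-state replicate 1 carries an array number next to those of the 330 s arrays. Against it alone the median of the autophagy genes at 330 s was -0.83, beside -0.19 for all genes, with 27 of the 34 negative. The number negative among all genes was not counted there. On the 300 s arrays the ACT1 ratio was 2.35, 2.55 and 2.37. The part of RNA quality and of array series or day in the 300 s results was not tested either. Within the 2 array-number series that held 300 s and steady state, the medians of the autophagy genes were -0.46 and -0.37. Those of all genes are not given here. On the day that held 300 s replicate 1 and steady-state replicate 2, the median was -0.22, beside -0.12 for all genes.

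**Figure D2:**
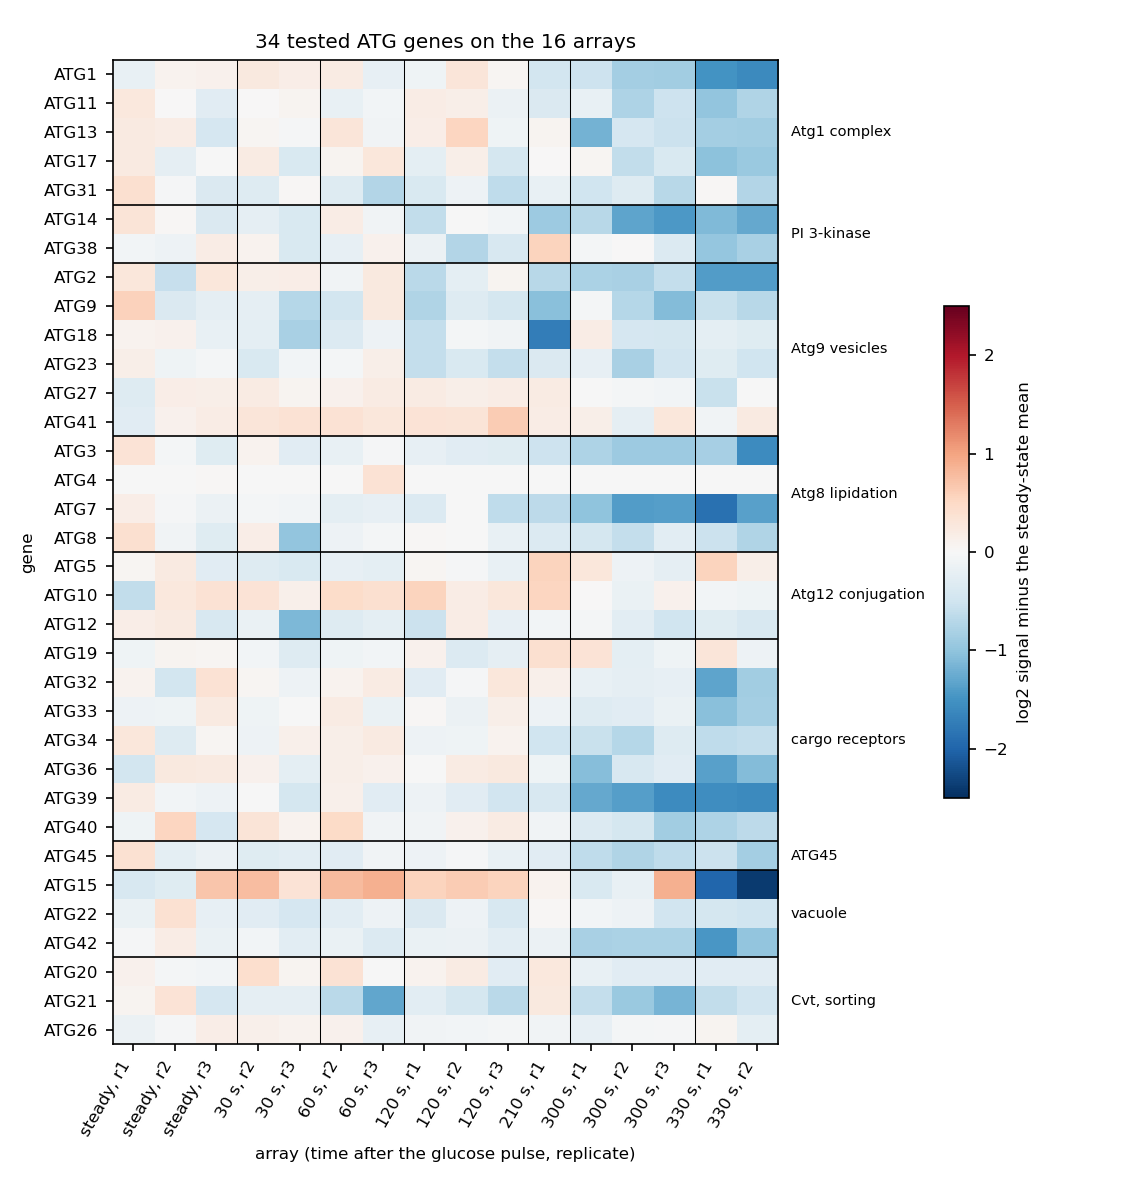
Log2 signal minus the steady-state mean of the 34 tested autophagy genes (rows, grouped by role) on each of the 16 arrays (columns, in order of time, r1 to r3 being replicates), in blue where lower and red where higher. The blue columns are those of 300 s and 330 s, and the darkest blue is ATG15 at 330 s, in a row that is red from 30 s to 120 s.

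Among 5 tested genes of the Atg1 kinase complex, which starts the process, 2 fell at 300 s and 4 at 330 s. These are 40% and 80%, where 18.3% and 24.3% of all genes fell. The groups by role are small, and none was tested as a set. ATG1 (YGL180W) encodes the kinase itself. Its signal was 47.6, 57.0 and 57.7 at steady state, 63.9 and 60.2 at 30 s, 62.0 and 46.6 at 60 s, 50.2, 66.7 and 55.6 at 120 s, 39.0 at 210 s, 37.5, 30.0 and 29.4 at 300 s, and 19.1 and 17.9 at 330 s. Both 330 s arrays were below every 300 s array, and these were below every steady-state array. The log2 fold change was -0.75 ± 0.18 at 300 s (SE, limma adjusted p 0.00487, 1.68-fold lower) and -1.54 ± 0.20 at 330 s (limma adjusted p 2.73e-05, 2.91-fold lower). ATG13, the regulatory subunit that TORC1 phosphorylates, read 26.4, 44.9 and 41.3 at 300 s and 33.1 and 32.6 at 330 s, against 70.0, 68.1 and 44.7 at steady state. A 300 s array (44.9) stood just above a steady-state array (44.7), and its log2 fold change was -0.71 ± 0.24 (limma adjusted p 0.0344) at 300 s and -0.86 ± 0.27 (limma adjusted p 0.0184) at 330 s. ATG11, the scaffold for selective autophagy, and ATG17, the scaffold for bulk autophagy, fell at 330 s only, by 0.87 ± 0.21 and 0.98 ± 0.24 on the log2 scale (limma adjusted p 0.00486 and 0.00529), with 1 of the ATG17 arrays at the floor. ATG31, which links Atg17 to Atg29, passed at neither time (-0.51 ± 0.24 at 300 s and -0.35 ± 0.26 at 330 s).

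In the lipid kinase complex that makes phosphatidylinositol 3-phosphate for autophagy, both genes with an ATG name were lower at 330 s. Of all genes, 24.3% fell at that time. ATG14 (YBR128C) directs this complex to autophagy. It read 41.1, 33.3 and 25.5 at steady state, 28.0 and 25.1 at 30 s, 37.4 and 30.9 at 60 s, 21.2, 32.7 and 31.1 at 120 s, 17.4 at 210 s, 20.2, 13 and 12.1 at 300 s, and 15.2 and 13.5 at 330 s. Every array from 210 s on was below every steady-state array, and the late signals lay close to the floor. The fall was 1.15 ± 0.23 on the log2 scale at 300 s (limma adjusted p 0.00169, 2.22-fold) and 1.19 ± 0.26 at 330 s (limma adjusted p 0.00231, 2.28-fold), and doubling the floor ended the 330 s call (limma adjusted p 0.0635). ATG38, which holds the complex together, showed a log2 difference of -0.13 ± 0.18 at 300 s and fell by 0.89 ± 0.20 at 330 s (limma adjusted p 0.0032). Its signals were 73.5 and 81.7 at 330 s, against 137, 130.3 and 164 at steady state, with no overlap.

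Of 6 genes for Atg9 vesicles and membrane expansion, 2 fell at 300 s and 1 at 330 s. These are 33.3% and 16.7%, where 18.3% and 24.3% of all genes fell. ATG2 (YNL242W) encodes the protein that transfers lipid into the growing membrane. It read 38.5, 21.2 and 38.6 at steady state, 34.9 and 35.5 at 30 s, 29.9 and 37.4 at 60 s, 19.7, 26.8 and 33.3 at 120 s, 19.6 at 210 s, 18.2, 18.1 and 20.8 at 300 s, and the floor of 12 on both arrays at 330 s. All late arrays were below steady state, though steady-state replicate 2 was only just above the 300 s arrays. The log2 fold change was -0.73 ± 0.23 at 300 s (limma adjusted p 0.0269), and at 330 s it was -1.40 ± 0.26 (limma adjusted p 0.000742), a fall of at least 2.63-fold because both arrays were at the floor. ATG9 (YDL149W), the membrane scramblase on the vesicles, read 38.1, 20.0 and 22.0 at steady state, 22.0 and 15.6 at 30 s, 18.5 and 30.3 at 60 s, 15.1, 20.5 and 18.8 at 120 s, 12.4 at 210 s, 24.7, 15.6 and 12 at 300 s, and 17.4 and 15.8 at 330 s. Its arrays overlapped at 300 s but not at 330 s, and neither difference passed (-0.62 ± 0.29, limma adjusted p 0.115, and -0.63 ± 0.32, limma adjusted p 0.138). However, the 300 s difference passed with 300 s replicate 1 removed (-0.91, limma adjusted p 0.0265). The 330 s difference passed with the array-number series as a block (-1.20, limma adjusted p 0.0363). ATG23, which helps to form the vesicles, fell by 0.50 ± 0.18 on the log2 scale at 300 s (limma adjusted p 0.0452) and gave -0.40 ± 0.20 at 330 s (limma adjusted p 0.122). ATG18, ATG27 and ATG41 passed at neither time, with log2 differences between -0.28 and 0.07.

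Both ubiquitin-like systems of autophagy were measured. Among 4 genes of Atg8 lipidation, ATG7 and ATG3 fell at both times (50%), where 18.3% and 24.3% of all genes fell. None of the 3 tested genes of Atg12 conjugation passed at either time, where 30.5% and 37.6% of all genes did. ATG7 (YHR171W) encodes the E1-like enzyme that activates both Atg8 and Atg12. Its signal was 93.0, 81 and 74.6 at steady state, 80.1 and 78.2 at 30 s, 69.8 and 71.9 at 60 s, 64.9, 81.5 and 53.3 at 120 s, 52.2 at 210 s, 41.1, 31.5 and 31.7 at 300 s, and 22.5 and 32.1 at 330 s. Late arrays were all below every earlier array. ATG7 fell by 1.26 ± 0.19 on the log2 scale at 300 s (limma adjusted p 0.000194, 2.39-fold) and by 1.62 ± 0.22 at 330 s (limma adjusted p 4.13e-05, 3.07-fold). ATG3 (YNR007C) encodes the E2-like enzyme that hands Atg8 to the lipid. It read 149.7, 114 and 95.1 at steady state, 126 and 97.1 at 30 s, 103 and 114 at 60 s, 101, 96.0 and 94.6 at 120 s, 82.5 at 210 s, 68.4, 62.2 and 62.9 at 300 s, and 66.5 and 39.6 at 330 s. Again no late array reached any earlier one, and the log2 fold change was -0.87 ± 0.20 at 300 s (limma adjusted p 0.00452) and -1.19 ± 0.22 at 330 s (limma adjusted p 0.000779).

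ATG8 (YBL078C) itself, the protein that is attached to the membrane and is used as its marker, passed at neither time. It read 655, 467 and 405 at steady state, 559 and 250.1 at 30 s, 457 and 483 at 60 s, 511, 495 and 439 at 120 s, 393 at 210 s, 366, 329 and 413 at 300 s, and 342 and 295 at 330 s. Its lowest signal was 30 s replicate 3, its 300 s arrays overlapped with steady state, and its 330 s arrays did not. The log2 difference was -0.44 ± 0.23 at 300 s (limma adjusted p 0.162) and -0.65 ± 0.26 at 330 s (limma adjusted p 0.0581). The 330 s difference passed without 30 s replicate 2 (limma adjusted p 0.0112), without 30 s replicate 3 (0.0111) and without steady-state replicate 3 (0.036). It also passed with the array-number series as a block (-1.04, limma adjusted p 0.0229), with the pulse number as a replicate block (-0.75, limma adjusted p 0.0221) and among genes above the floor on every array (limma adjusted p 0.0496).

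For Atg12 conjugation, ATG5, the acceptor of Atg12, read 247, 187 and 174 at 300 s and 301 and 226 at 330 s, against 212, 238 and 167 at steady state. These overlapped, with a log2 difference of -0.02 ± 0.16 at 300 s and 0.36 ± 0.18 at 330 s (limma adjusted p 0.936 and 0.135). ATG10, the E2-like enzyme for Atg12, and ATG12 gave -0.02 ± 0.20 and -0.27 ± 0.25 at 300 s, and -0.09 ± 0.23 and -0.36 ± 0.28 at 330 s. The difference between the 2 groups of genes was not tested.

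**Figure D3:**
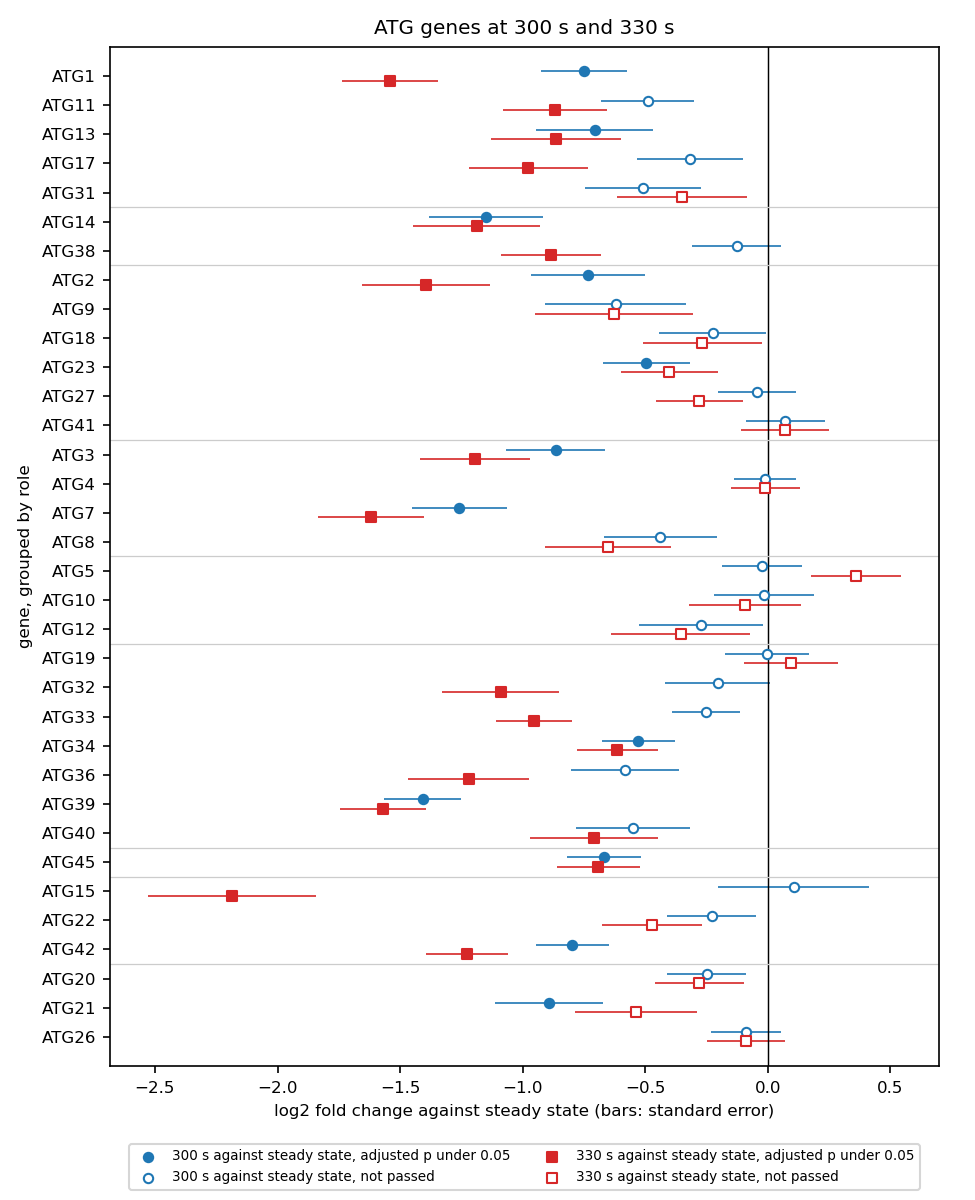
Log2 fold change against steady state (horizontal axis) with its standard error for the 34 tested autophagy genes, grouped by role from top to bottom, at 300 s (blue circles) and 330 s (red squares), filled where the limma adjusted p was under 0.05. All filled symbols lie left of 0, ATG15 at 330 s lies farthest left at -2.18, and ATG5, ATG10 and ATG12 are open at both times.

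Cargo receptors and organelle-specific factors were mostly lower late in the course. Of 7 genes, 2 fell past the test at 300 s and 6 at 330 s. These are 28.6% and 85.7%, where 18.3% and 24.3% of all genes fell. ATG39 (YLR312C), the receptor for degradation of the nuclear envelope, fell most of all 34 genes at 300 s. It read 373, 308 and 294 at steady state, 323 and 239 at 30 s, 351 and 264 at 60 s, 296, 266 and 233 at 120 s, 245 at 210 s, 134, 124 and 109 at 300 s, and 111 and 107 at 330 s. The 5 late arrays lay well below the lowest earlier array. The log2 fold change was -1.41 ± 0.16 at 300 s (limma adjusted p 8.93e-06, 2.65-fold lower) and -1.57 ± 0.17 at 330 s (limma adjusted p 7.3e-06, 2.97-fold lower). ATG34, a receptor for the vacuolar mannosidase Ams1, read 389.8, 351 and 457 at 300 s and 369.6 and 378 at 330 s, against 697, 457 and 589 at steady state. Its 300 s arrays reached the lowest steady-state signal, and it fell by 0.53 ± 0.15 on the log2 scale (limma adjusted p 0.0141) and by 0.61 ± 0.17 at 330 s (limma adjusted p 0.00889). ATG19, its paralogue and the receptor of the Cvt pathway, did not pass, at 0.00 and 0.09 log2 units in size at 300 s and 330 s, and whether the probe sets of these paralogues share target sequence was not tested.

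The receptors for mitochondria and peroxisomes passed only the later test. ATG32 (YIL146C), the receptor for mitochondria, read 58.9, 40.0 and 71.2 at steady state, 56.8 and 50.8 at 30 s, 58.4 and 63.5 at 60 s, 45.3, 54.0 and 66.7 at 120 s, 60.5 at 210 s, 48.3, 47.2 and 48.0 at 300 s, and 22.2 and 30.3 at 330 s. The 300 s arrays sat inside the steady-state range and the 330 s arrays below it. Its log2 difference was -0.20 ± 0.21 at 300 s (limma adjusted p 0.499) and it fell by 1.09 ± 0.24 at 330 s (limma adjusted p 0.00233). ATG33, a mitochondrial outer membrane protein needed for mitophagy, read 184, 188 and 205 at 300 s and 110.2 and 126 at 330 s, against 210.1, 213 and 267 at steady state. Here no late array overlapped with steady state, with -0.25 ± 0.14 at 300 s (limma adjusted p 0.185) and -0.95 ± 0.16 at 330 s (limma adjusted p 0.000245). ATG36, the receptor for peroxisomes, read 63.4, 102 and 109 at 300 s and 51.8 and 63.1 at 330 s, against 97.2, 157 and 155 at steady state, and fell by 1.22 ± 0.25 at 330 s (limma adjusted p 0.00129) after -0.58 ± 0.22 at 300 s (limma adjusted p 0.0564). ATG40, a receptor for the endoplasmic reticulum, gave -0.55 ± 0.23 at 300 s and -0.71 ± 0.26 at 330 s (limma adjusted p 0.0854 and 0.0429). ATG45, whose product is a receptor for glycogen, fell at both times, by 0.67 ± 0.15 and 0.69 ± 0.17 on the log2 scale (limma adjusted p 0.00396 and 0.00509).

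In the vacuole, 1 of 3 tested genes fell at 300 s and 2 at 330 s. These are 33.3% and 66.7%, where 18.3% and 24.3% of all genes fell. ATG42 (YBR139W) encodes a serine carboxypeptidase that helps to break down delivered material. It read 146, 171 and 134 at steady state, 143 and 124 at 30 s, 133 and 118 at 60 s, 134, 135 and 124 at 120 s, 134 at 210 s, 85.4, 86.2 and 85.7 at 300 s, and 54.2 and 74.8 at 330 s. All late arrays lay below all earlier ones, with a log2 fold change of -0.80 ± 0.15 at 300 s (limma adjusted p 0.000938) and -1.23 ± 0.17 at 330 s (limma adjusted p 4.69e-05). ATG15 (YCR068W) behaved otherwise. It read 71.9, 77.6 and 154 at steady state, 163 and 121 at 30 s, 165 and 175 at 60 s, 139.9, 148 and 139 at 120 s, 102 at 210 s, 72.8, 84.1 and 175 at 300 s, and 24.2 and 18.1 at 330 s. Its steady-state and 300 s arrays spread widely, with replicate 3 the highest at both times, and only the 330 s arrays stood apart. The log2 difference was 0.11 ± 0.31 at 300 s (limma adjusted p 0.828) and -2.18 ± 0.34 at 330 s (limma adjusted p 0.000174, 4.55-fold lower), the largest fall of the 34 genes at that time. The array holds 3 probe sets for ATG15, and they fell by 2.18, 1.64 and 1.25 on the log2 scale at 330 s. Against steady-state replicate 1, of the same array-number series, the ATG15 difference at 330 s was -1.78. ATG22, which exports amino acids from the vacuole, did not pass (-0.23 ± 0.18 at 300 s and -0.47 ± 0.20 at 330 s).

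**Figure D4:**
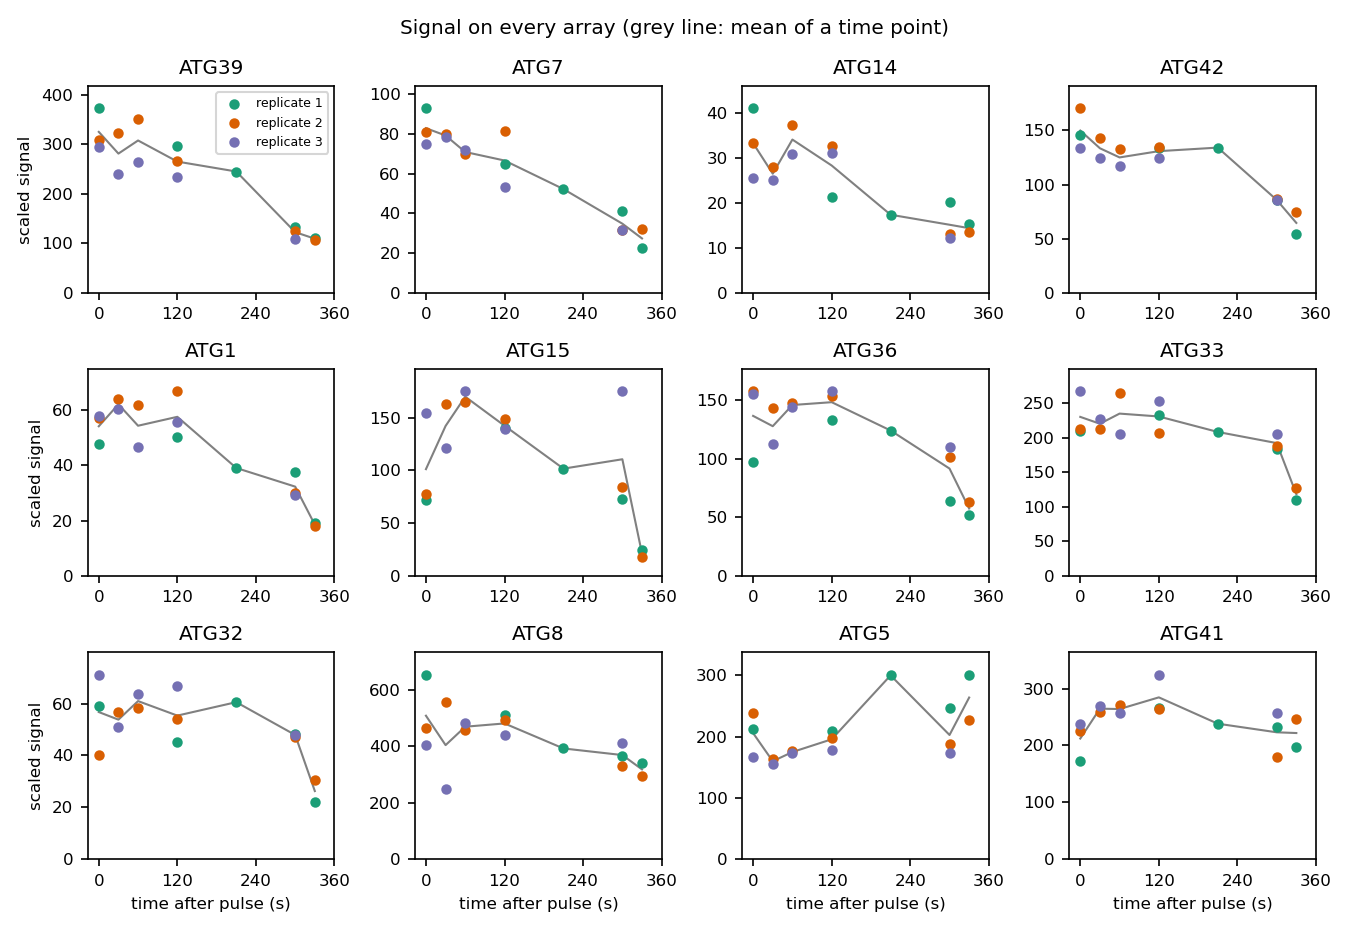
Scaled signal of 12 autophagy genes on every array (vertical axes, from 0) against time after the pulse in seconds, with steady state at 0, coloured by replicate, and with a grey line through the mean of each time. ATG39, ATG7, ATG14, ATG42 and ATG1 are low on all 300 s and 330 s arrays, ATG15, ATG33 and ATG32 are lowest at 330 s, and ATG5 and ATG41 show no such drop.

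Of the accessory factors of the Cvt pathway and of sorting, ATG21 (YPL100W) alone passed. It was 1 of 3 tested (33.3%) at 300 s, where 18.3% of all genes fell. It read 88.3, 107 and 62.6 at steady state, 71.4 and 71.7 at 30 s, 52.7 and 34.1 at 60 s, 69.7, 61.6 and 52.9 at 120 s, 99.2 at 210 s, 55.1, 44.4 and 37.7 at 300 s, and 55.1 and 60.5 at 330 s. All arrays of 300 s and 330 s were below steady state, while the 210 s array was inside its range. The log2 fold change was -0.89 ± 0.22 at 300 s (limma adjusted p 0.00707) and -0.54 ± 0.25 at 330 s (limma adjusted p 0.0989). ATG20, a sorting nexin, lay close to the floor throughout (12 to 19.5). ATG26, a sterol glucosyltransferase, lay between 91.1 and 121 on all arrays and gave -0.09 at both times.

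Several calls rested on few arrays. At 300 s those of ATG2, ATG13, ATG23 and ATG34 were lost when a single array was left out. The call of ATG2 ended with 300 s replicate 1 or 2 or steady-state replicate 1 or 3 removed (limma adjusted p up to 0.109). That of ATG13 ended with 300 s replicate 1 or steady-state replicate 1 or 2 removed (up to 0.139), that of ATG34 with 300 s replicate 2 or steady-state replicate 1 removed (up to 0.0677), and that of ATG23 with any of 10 arrays removed (up to 0.199). At 330 s the calls of ATG11 and ATG34 ended with 330 s replicate 1 removed (limma adjusted p 0.059 and 0.0616), that of ATG45 with 330 s replicate 2 removed (0.0752), that of ATG13 with either of these arrays or with steady-state replicate 1 or 2 removed (up to 0.0924), and that of ATG40 with any of 10 arrays removed (up to 0.188). Doubling the floor ended the 330 s calls of ATG2 and ATG17, whose signals there lay at or near it (limma adjusted p 0.0742 and 0.577). It also ended those of ATG14 and ATG40, and the 300 s call of ATG2. Quantile normalization ended the 300 s calls of ATG2, ATG13 and ATG23 and the 330 s call of ATG13. With only the arrays compared in the fit, the 300 s calls of ATG2, ATG13, ATG23 and ATG34 ended. So did the 330 s calls of ATG13, ATG34, ATG40 and ATG45. Other settings of floor or filter also ended the 300 s calls of ATG13 and ATG23 and the 330 s call of ATG40. Median scaling of the arrays ended the 300 s calls of ATG2, ATG13, ATG23 and ATG34 (limma adjusted p 0.0875, 0.0681, 0.138 and 0.102) and the 330 s calls of ATG34 and ATG40 (0.0974 and 0.0817). With the array-number series as a block the 300 s calls of ATG2, ATG13 and ATG23 (0.112, 0.115 and 0.0902) and the 330 s call of ATG40 (0.148) ended, and with the day as a block the 300 s calls of ATG13 and ATG23 (0.0723 and 0.193). With a single array left out, 9 to 13 genes passed at 300 s and 14 to 20 at 330 s, and over all alternatives 8 to 15 and 14 to 21. The share of all genes under each setting is not given beside these counts.

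At 300 s against 120 s, 11 of the 34 genes fell and none rose, where 22.1% of all genes passed, 10.8% lower and 11.3% higher. They were ATG1, ATG3, ATG7, ATG11, ATG13, ATG14, ATG34, ATG36, ATG39, ATG42 and ATG45. This comparison uses no steady-state array, and shares its 300 s arrays with the comparison against steady state. The median log2 difference was -0.36, beside -0.04 for all genes. Within the 3 array-number series that held both times the median of the autophagy genes was -0.51, -0.34 and -0.24. The medians of all genes within each series are not given here. In 17 genes every 300 s array was below every 120 s array, as in 22% of all genes, and in none were they all above, as in 17.9% of all genes. ATG39 fell most, by 1.11 on the log2 scale (limma adjusted p 0.000114), followed by ATG7 with 0.93 (limma adjusted p 0.00265). The count was 7 when 300 s replicate 1 or 2 or replicate 3 of 120 s was removed, and 5 when replicate 2 of 120 s was removed. How many of all genes passed with these arrays removed is not given here, so these counts do not set the autophagy genes apart.

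At 330 s against 300 s, 3 of the 34 genes fell, where 2.18% of all genes passed, 1.53% lower. They were ATG15 (-2.29 ± 0.34, limma adjusted p 0.00692), ATG1 (-0.79 ± 0.20, limma adjusted p 0.0491) and ATG33 (-0.70 ± 0.16, limma adjusted p 0.0344). No series or day of arrays held both times, and with the array-number series as a block none passed (limma adjusted p 0.261 for ATG15). None passed without either 330 s array, and 1 passed without 120 s replicate 1 or without any of the 300 s arrays. How many of all genes passed under these settings is not given here. The ACT1 ratios given above also differed between these times, and their part in the 330 s against 300 s result was not tested.

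Over the whole course, 19 of the 34 genes changed by limma's moderated F test (55.9%), where 35.5% of all genes did.

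Other genes act with the ATG genes but carry other names. Of 9 genes of the lipid kinase complex, of sorting and of vesicle tethering, 3 (33.3%) fell at 300 s and 3 at 330 s, where 18.3% and 24.3% of all genes fell. SNX41, a sorting nexin that pairs with Snx4, averaged 13.1 ± 0.7 at 300 s and 30.4 ± 6.0 at steady state (SD, n = 3 each), a log2 fold change of -1.20 ± 0.19 (limma adjusted p 0.000283). SNX4 (ATG24) fell by 0.66 ± 0.20 (limma adjusted p 0.0215) and VPS30 (ATG6), a subunit shared with the sorting form of the kinase complex, by 0.56 ± 0.20 (limma adjusted p 0.0448). VPS34, the kinase itself, gave 0.02 ± 0.19. Of 12 genes of vacuole fusion, 2 fell at each time, a share of 16.7% that was below those of all genes, and at 300 s these were VTI1, a SNARE (-0.68 ± 0.16, limma adjusted p 0.00452), and MON1, part of the activator of Ypt7 (-0.44 ± 0.14, limma adjusted p 0.0295).

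Among 9 vacuolar hydrolases and Cvt cargo proteins, 5 (55.6%) fell at 300 s and 5 at 330 s, and none rose, where 18.3% and 24.3% of all genes fell. The alkaline phosphatase gene PHO8, whose product is used to assay autophagy, averaged 70.7 ± 11.6 at 300 s and 118 ± 12.2 at steady state (SD, n = 3 each), a log2 fold change of -0.74 ± 0.15 (limma adjusted p 0.00197). The mannosidase gene AMS1 fell by 0.49 ± 0.13 (limma adjusted p 0.00939), the carboxypeptidase gene PRC1 by 0.46 ± 0.16 (limma adjusted p 0.0394) and the aminopeptidase gene APE4 by 0.45 ± 0.16 (limma adjusted p 0.0451) at 300 s. APE1, the main cargo of the Cvt pathway, gave -0.19 ± 0.14 at 300 s and fell by 0.44 ± 0.15 at 330 s (limma adjusted p 0.0336).

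Among the regulators, calls ran in both directions. Of 19 genes of TORC1 and its upstream regulators, 4 fell and 1 rose at 300 s, and 8 fell and 1 rose at 330 s, or 26.3% and 47.4% called, where 30.5% and 37.6% of all genes were called. MEH1, a subunit that anchors the Gtr GTPases to the vacuole, fell by 0.81 ± 0.17 at 300 s (limma adjusted p 0.00242), whereas GTR1, one of those GTPases, rose by 0.45 ± 0.15 (limma adjusted p 0.0333). MTC5, of the SEA complex, and TIP41, a regulator of phosphatases under TORC1, fell by 0.44 ± 0.15 and 0.42 ± 0.15 (limma adjusted p 0.0327 and 0.042). Among 12 kinase genes, 4 (33.3%) passed at 300 s and 6 (50%) at 330 s. SNF1, the energy-sensing kinase, and TPK2, a catalytic subunit of protein kinase A, fell at 300 s by 0.71 ± 0.26 and 0.66 ± 0.15 (limma adjusted p 0.0494 and 0.00364). HRR25, a casein kinase that phosphorylates autophagy receptors, and SLT2, of the cell wall integrity pathway, rose by 0.55 ± 0.18 and 0.55 ± 0.16 (limma adjusted p 0.0303 and 0.015).

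Of 11 transcription factors and co-regulators reported at ATG promoters, 1 rose and none fell at 300 s (9.09% called, against 30.5% of all genes), and 2 rose and 2 fell at 330 s (36.4%, against 37.6% of all genes). The gene that rose at both times was RPH1, a histone demethylase known as a repressor of several ATG genes. RPH1 averaged 143 ± 55.4 at 300 s (SD, n = 3) and 167 ± 34.4 at 330 s (n = 2), against 58.4 ± 4.7 at steady state (n = 3), with log2 fold changes of 1.21 ± 0.24 and 1.5 ± 0.27 (limma adjusted p 0.00166 and 0.000562). PHO23, another known repressor, was lower, at -0.66 ± 0.24 at 300 s (limma adjusted p 0.0522) and -1.20 ± 0.27 at 330 s (limma adjusted p 0.00293). UME6, a repressor at the ATG8 promoter, gave -0.08 ± 0.21 at 300 s and 0.20 ± 0.24 at 330 s, and did not pass. The others that passed at 330 s were FYV5, which rose (1.33 ± 0.40, limma adjusted p 0.0164), and MSN2, a stress-response activator, which fell by 0.60 ± 0.17 on the log2 scale (limma adjusted p 0.0101).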

How the data were processed

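RNA was measured on 16 Affymetrix yeast arrays. The authors deposited a linear intensity per probe set, made with GCOS per the submitters' processing notes, with no version or settings given in the sources used here. Of 9335 probe sets, 6504 carry 1 gene in the platform annotation, and all of these matched the RefSeq gene table by gene ID. Signals were multiplied per array to reach a trimmed mean of 150 (2% trimmed at each end), floored at 12 and put on a log2 scale. Of 5656 genes, 246 that passed the floor on fewer than 2 arrays were dropped. A linear model was fitted over 15 arrays with limma 3.58.1 in R 4.3.3 (eBayes with a variance trend, 9 residual and 6.31 prior degrees of freedom). Benjamini-Hochberg adjustment ran over all 5410 genes. The procedure was run on simulated data with independent noise on each array and with changes only in genes well above the floor. That simulation held no effect of array series, day or RNA quality. It does not bear on these effects or on signals near the floor. The single 210 s array entered no test. P-values weigh a difference against the spread between arrays of a time, pooled over the times, with the arrays taken as independent. The small number of arrays limits the precision.

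The members and lists were chosen with earlier results of these data known. Signals on every array are given for the 8 largest falls at 300 s and for ATG1, ATG7, ATG8, ATG9, ATG14, ATG15 and ATG32, with shorter accounts of the rest, and for each related list up to 4 called genes with the largest change at 300 s are named; VPS34, APE1, UME6, FYV5 and MSN2 were added after their values were seen. Titles number the pulses 1 to 3 but do not say that arrays of a number shared a culture. Alternatives covered scaling, floor, filter, probe sets, variance model, arrays in the fit, blocks, threshold and each array left out.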

Additional observations from a re-analysis of the deposited data

Results flagged for a closer look

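The log2 difference between 300 s and 120 s passed limma's test for 11 autophagy genes, so their distance from steady state differed between these times. The differences, 300 s minus 120 s, were -0.83 for ATG1, -0.59 for ATG3, -0.93 for ATG7, -0.55 for ATG11, -0.91 for ATG13, -0.92 for ATG14, -0.48 for ATG34, -0.73 for ATG36, -1.11 for ATG39, -0.61 for ATG42 and -0.56 for ATG45. Between 330 s and 300 s the difference passed for ATG1 (-0.79), ATG15 (-2.29) and ATG33 (-0.70). Of the 11 calls, 4 held in every alternative, and of these 3 none did. The 330 s arrays were processed on a day of their own, so time and day cannot be told apart there.

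The single array of 210 s, which entered no test, lay above every steady-state array for 7 autophagy genes and below every one for 14. The share of all genes that did so was not computed, and a single array gives no measure of spread. These counts are therefore not a result about the autophagy genes. The signals above were 299.9 for ATG5, 201 for ATG10, 238 for ATG19, 17.6 for ATG20, 162 for ATG27, 210.0 for ATG38 and 238 for ATG41. For ATG19, ATG27 and ATG38 the 210 s signal was the highest of all 16 arrays. ATG18, the lipid-binding partner of Atg2, read 16.5 on this array, against 47.4 to 58.3 on the 3 steady-state arrays.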

How the results depend on the processing

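Over 29 alternatives, 0 autophagy genes passed at 30 s, 60 s or 120 s, 8 to 15 passed at 300 s and 14 to 21 at 330 s. Of 44 calls over the 4 later comparisons, 22 held in every alternative (8 of 12 at 300 s, 10 of 18 at 330 s, 4 of 11 for 300 s against 120 s, 0 of 3 for 330 s against 300 s). For 300 s against 120 s, 5 genes passed at an adjusted p under 0.01 and 5 to 12 with an array left out. For 330 s against 300 s, 1 passed under median scaling, at an adjusted p under 0.01 and with day as a random block (an alternative chosen after seeing the data), 0 with the array-number series as a block or with only the arrays compared, and 0 to 4 with an array left out. Over the course, 12 passed at an adjusted p under 0.01. The ATG15 difference at 300 s turned negative with day as a block (-0.19), and ran from -0.28 to 0.45 with an array left out, negative with 300 s replicate 3 or steady-state replicate 1 or 2 removed. Day as a fixed block could not be fitted for 330 s. Median scaling moved the median of all genes at 330 s to -0.04 and that of the autophagy genes to -0.51, and under it ATG5 rose at 330 s, as ATG10 did with the series as a block. At 300 s the median of the autophagy genes was -0.30 after quantile normalization and -0.26 with double the floor. With the pulse number as a replicate block, 15 passed at 300 s and 21 at 330 s. The number of all genes that passed is not given beside the counts under these alternatives. The counts therefore do not set the autophagy genes apart from other genes. Deviations from the mean of each time correlated by a median of 0.19 in 22 pairs of arrays of the same pulse and array-number series. The median was 0.05 in 9 pairs of the same pulse across series, and -0.09 in 61 pairs that shared neither. Pulse and series mostly went together, so their parts cannot be told apart. The main test treated the arrays as independent, and pulse number and series were each tried as a block. Signals near the floor understate falls.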
